A study of Mus musculus with 6 samples.

Results

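The genes described here are the serine and arginine rich splicing factors (Srsf genes) and the heterogeneous nuclear ribonucleoproteins (Hnrnp genes) of the mouse. Members were taken by symbol: Srsf followed by a number, or Hnrnp followed by letters or digits, with pseudogenes left out. This gave 31 of the 57010 identifiers in the deposited count table, 11 Srsf and 20 Hnrnp genes. The rule reads symbols alone, but these families were picked for description with earlier results of these data known. RNA was sequenced from CT26, a cell line from a mouse colon carcinoma. Of the 6 libraries, 3 came from cells carrying a control guide RNA (sgControl) and 3 from cells carrying a guide RNA against Cdk10 (sgCdk10), the gene of cyclin-dependent kinase 10. The title of the study links CDK10 to nucleic acid sensing and antitumor immunity. No treatment or time point is labelled, and the sources used here do not say how Cas9 was delivered or whether the cells were a clone or a pool.

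SR proteins bind exonic enhancers through RNA recognition motifs and recruit the spliceosome through a domain of alternating arginine and serine, which the SRPK and CLK kinases phosphorylate. The hnRNPs coat nascent transcripts and, depending on where they bind, repress or promote the use of a splice site, and many also act in mRNA export, stability and translation. Genes of both families are known to control their own level by splicing a poison exon or an intron of the 3' untranslated region into a form that nonsense-mediated decay removes.

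Cdk10 was counted 381, 344 and 365 times in the sgControl libraries and 204, 227 and 202 times in the sgCdk10 libraries. That was 20.4 ± 1.05 and 11.6 ± 1.24 CPM (counts scaled to a common library total, mean ± SD over 3 libraries), a log2 fold change of -0.82 with a standard error (SE) of 0.08 (adjusted p = 8.4e-09, edgeR quasi-likelihood test). The mRNA was lower in the sgCdk10 libraries without overlap, and its count says nothing of the protein. Separate cultures are not stated for the libraries of a group, so p-values here and below may measure technical spread only. Library totals lay between 17532202 and 19258309 counts. The second principal component, with 16.5% of the variance, placed sgControl replicate 3 away from the remaining 5 libraries, and the mitochondrial share of its counts was 4.93%, against 4.19% to 4.40% in those. Its part in the results was not tested beyond refitting without it. That refit is given below for both families, the related lists and some of the genes. Of 10 leukocyte markers none passed the filter on low counts, their summed level was at most 0.791 CPM in any library, and Cd3e, Adgre1 and Nkg7 were at 0. Of 10 epithelial and colon markers 3 were tested and Epcam was at 0 in every library, so this colon carcinoma line lacked a defining epithelial transcript. The epithelial sum was 37.0 to 40.8 CPM in sgControl and 58.1 to 59.4 in sgCdk10, with Krt18 and Krt20 called higher and Muc2 lower. Muc2 had counts of 13, 16 and 16 against 7, 8 and 9, and lost its call without sgControl replicate 3 (adjusted p = 0.064 by edgeR). The sum of 8 endothelial and fibroblast markers was 59.0 to 63.4 CPM against 67.0 to 71.7, with Pdgfra called higher and Lum at 0. Whether these marker differences have a part in those described here was not tested.

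Of the 31 genes, 30 were tested and 16 were called at an adjusted p under 0.05 by edgeR. Among all 13442 tested genes 42.5% were called, 22.1% higher and 20.4% lower in sgCdk10. In the Srsf family 5 of the 10 tested genes fell (50%) and 1 rose, and in the Hnrnp family 7 of 20 fell (35%) and 3 rose. The largest falls were those of Srsf5, Hnrnpdl, Srsf3 and Hnrnpa3, and none of the 30 fold changes was larger than that of Srsf5. The median log2 fold change was -0.08 over the Srsf genes, -0.04 over the Hnrnp genes and 0.00 over all tested genes. Most members are abundant, and abundant genes are called more often. Among the 2408 genes with a mean of at least 100 CPM, a limit chosen after the data were seen, 59.7% were called, 28.3% higher and 31.4% lower, and of the 26 members at that level 53.8% were called, 2 higher (7.69%) and 12 lower (46.2%). That limit left out Srsf9 and Hnrnph2, both called higher, and no member called lower. In cultured cells as in tissue, counts from bulk RNA cannot tell fewer cells of one kind from less RNA per cell.

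Without sgControl replicate 3 the Srsf counts stayed at 1 higher and 5 lower, while 3 Hnrnp genes were higher and 11 lower, against a background of 22.1% higher and 22.2% lower. The added calls were Hnrnpr, Hnrnpa2b1, Hnrnpu and Hnrnpab. Without sgControl replicate 1, 3 Srsf genes in place of 5 were called lower, Srsf2 and Srsf7 losing the call. Without sgCdk10 replicate 3, 1 Hnrnp gene in place of 3 was called higher.

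**Figure D1:**
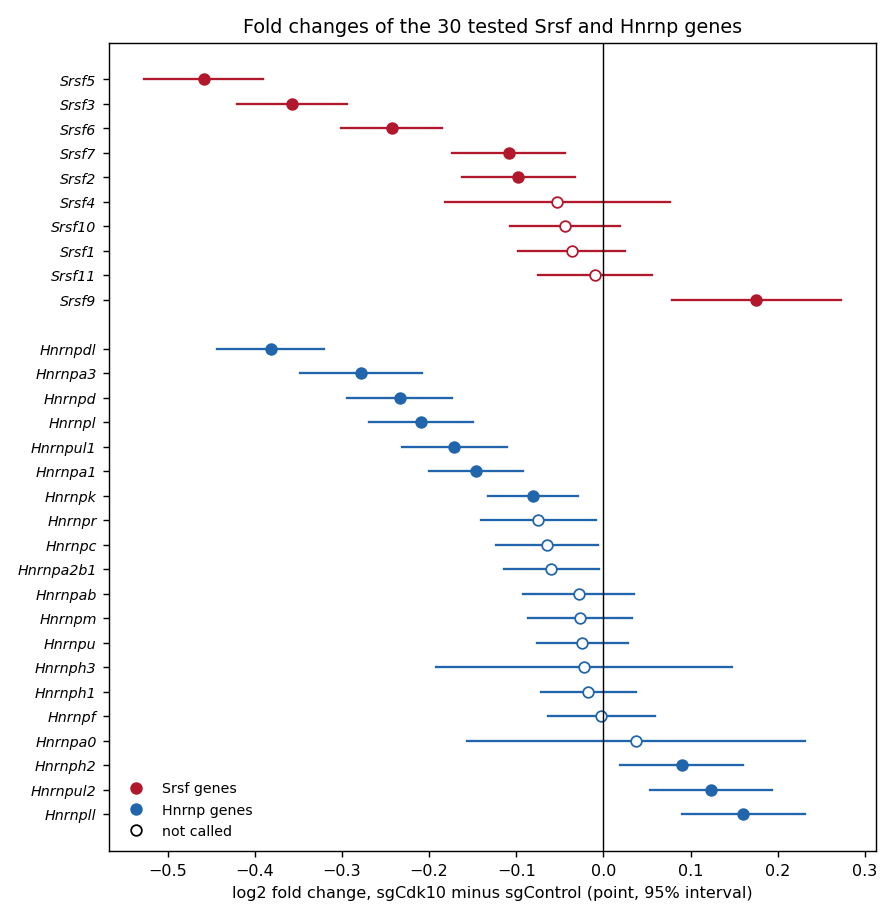
log2 fold change (sgCdk10 minus sgControl, edgeR) of the 30 tested Srsf and Hnrnp genes, with bars for the 95% confidence interval. Filled points are the 16 genes called at an adjusted p under 0.05, of which 12 lie to the left of 0 and 4 to the right.

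Srsf5 (ENSMUSG00000021134, chr12:80945504-80950507 on the plus strand, GRCm38) encodes an SR protein whose mRNA has long been known to respond to growth signals. It was counted 5181, 5253 and 5076 times in the sgControl libraries and 3780, 3559 and 4256 times in the sgCdk10 libraries. The highest sgCdk10 library, at 221 CPM, lay well below the lowest sgControl library, at 280 CPM. The means were 289.9 ± 8.81 and 210.9 ± 9.41 CPM, a log2 fold change of -0.46 (95% confidence interval -0.53 to -0.39, adjusted p = 7.5e-11 by edgeR). Without sgControl replicate 3 it was -0.49.

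Srsf3 (chr17:29032628-29043373, plus strand) encodes the smallest SR protein, which also takes part in mRNA export. It was counted 5535, 5355 and 5957 times in sgControl and 4443, 4317 and 4734 times in sgCdk10. In CPM the sgControl libraries spread from 303 to 329, while the sgCdk10 libraries were almost the same, 245 to 246. The log2 fold change was -0.36 (SE 0.03, adjusted p = 1.1e-09 by edgeR), and -0.33 without sgControl replicate 3.

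Srsf6 (chr2:162931528-162937121, plus strand), a close relative of Srsf4 and Srsf5, had counts of 5067, 5121 and 5132 in sgControl and 4361, 4334 and 4585 in sgCdk10. The groups did not overlap and each varied little, at 286 ± 3.23 and 242 ± 4.38 CPM. Its log2 fold change was -0.24 (SE 0.03, adjusted p = 1.7e-07 by edgeR).

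Srsf9 (chr5:115327177-115333080, plus strand), a paralog of Srsf1, was the Srsf gene that rose. The sgControl libraries held 1069, 1181 and 1044 counts of it and the sgCdk10 libraries 1259, 1202 and 1358, or 61.6 ± 4.72 and 69.5 ± 1.06 CPM. The sgControl libraries varied most here, and replicate 2, at 66.8 CPM, came close to the lowest sgCdk10 library, at 68.4 CPM. The log2 fold change was 0.18 (SE 0.05, adjusted p = 0.0039 by edgeR), and 0.13 (adjusted p = 0.012) without sgControl replicate 3.

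Srsf2, which encodes the speckle marker SC35, had the highest level per length of the family. It was counted 4037, 4014 and 3863 times in sgControl and 3783, 3594 and 4054 times in sgCdk10, or 222.7 ± 8.29 and 208 ± 3.09 CPM. The groups did not overlap, but the difference was small, with a log2 fold change of -0.10 (adjusted p = 0.014 by edgeR), and the call was lost without any 1 of 4 libraries (sgControl replicate 1 or 2, sgCdk10 replicate 1 or 2). Of its exon length, 25.3% overlaps other annotated genes, Mettl23 and Mfsd11 on the opposite strand. How reads there were assigned is not known, so its count may be too high or too low. Srsf7, a paralog of Srsf3 with a zinc knuckle, went from 166 ± 4.66 to 153 ± 1.80 CPM (log2 fold change -0.11, adjusted p = 0.0070), and lost the call without sgControl replicate 1 (adjusted p = 0.051).

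The other 4 tested Srsf genes were not called, with log2 fold changes from -0.05 to -0.01. They were Srsf1, the founding SR protein, Srsf4, Srsf10, which represses splicing when dephosphorylated, and Srsf11. Srsf11 lay closest to 0, with counts of 2842, 2791 and 2792 in sgControl and 2912, 2689 and 2987 in sgCdk10. The groups overlapped, and the 95% confidence interval of its log2 fold change ran from -0.08 to 0.06. Srsf4 was the least abundant tested Srsf gene, at 24.9 ± 1.83 and 24.0 ± 0.896 CPM, and 43.0% of its exon length overlaps another gene. Srsf12 had no count in any of the 6 libraries. A count of 0 allows up to 3 counts, or 0.156 to 0.171 CPM depending on the library, which covers counting error only.

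Among the hnRNPs the largest fall was that of Hnrnpdl (ENSMUSG00000029328, chr5:100033577-100039664, minus strand), a relative of Hnrnpd. It was counted 4498, 4531 and 4800 times in sgControl and 3511, 3510 and 3871 times in sgCdk10. The sgControl libraries stood at 254 to 265 CPM and the sgCdk10 libraries at 194 to 201 CPM, far apart against the spread within each. The log2 fold change was -0.38 (SE 0.03, adjusted p = 2.0e-10 by edgeR). Hnrnpd, which encodes AUF1, a binder of AU-rich elements that promotes decay of the mRNAs that carry them, had counts of 5111, 5129 and 5330 against 4436, 4240 and 4919. Its groups did not overlap either, at 291 ± 2.85 and 247 ± 7.35 CPM (log2 fold change -0.23, adjusted p = 5.3e-07). The third gene of this subfamily, Hnrnpab, was not called (log2 fold change -0.03, adjusted p = 0.49), and without sgControl replicate 3 was called lower (adjusted p = 0.014). Hnrnpd (chr5:99955935-99978938) lies on the same strand of the same chromosome as Hnrnpdl.

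The Hnrnpa genes bind exonic and intronic silencers, and Hnrnpa1 is the best known repressor among them. Hnrnpa3 (chr2:75659261-75669407, plus strand) was counted 2484, 2444 and 2644 times in sgControl and 2178, 2030 and 2195 times in sgCdk10. It went from 141 ± 3.97 to 116.7 ± 3.26 CPM without overlap, a log2 fold change of -0.28 (SE 0.03, adjusted p = 3.4e-07 by edgeR). Hnrnpa1 (chr15:103240432-103246692, plus strand), the most abundant member per length, had counts of 19579, 18774 and 19211 against 17724, 16789 and 18874. It fell from 1076 ± 25.8 to 972 ± 13.8 CPM, a smaller relative change (log2 fold change -0.15, adjusted p = 6.7e-05) but the largest in CPM of any member. Hnrnpa2b1 was not called at a log2 fold change of -0.06 (adjusted p = 0.071), although its groups did not overlap. Hnrnpa0, which has a single coding exon, was the member that sgControl replicate 3 moved most. It stood at 206 CPM in that library, at 245 and 247 CPM in the other sgControl libraries and at 236 to 241 CPM in sgCdk10. Its log2 fold change was 0.04 (adjusted p = 0.74), and -0.05 (adjusted p = 0.11) without that library.

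Hnrnpl and Hnrnpll are paralogs that bind CA-rich RNA, and Hnrnpll is known for its part in the splicing of Ptprc in lymphocytes. Hnrnpl (chr7:28808541-28822266, plus strand) was counted 10738, 10937 and 10326 times in sgControl and 9386, 9103 and 9923 times in sgCdk10. The sgControl libraries stood at 570 to 619 CPM, and the sgCdk10 libraries kept to 516 to 518 CPM. The log2 fold change was -0.21 (SE 0.03, adjusted p = 2.6e-06 by edgeR). Hnrnpll (chr17:80029487-80062334, minus strand) moved the other way, with counts of 2243, 2210 and 2447 against 2636, 2478 and 2800. It rose from 129 ± 5.38 to 144 ± 2.56 CPM without overlap (log2 fold change 0.16, adjusted p = 0.00048).

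Hnrnpul1 and Hnrnpul2 encode relatives of hnRNP U that also act in the response to DNA breaks, and they too moved apart. Hnrnpul1 (chr7:25721165-25754757, minus strand) had counts of 8062, 8426 and 8075 in sgControl and 7224, 7304 and 7858 in sgCdk10, or 459 ± 15.9 and 408 ± 8.45 CPM (log2 fold change -0.17, SE 0.03, adjusted p = 3.8e-05 by edgeR). Hnrnpul2 (chr19:8820010-8834143, plus strand) had counts of 3027, 2979 and 2993 against 3203, 3148 and 3718, or 168 ± 2.90 and 183 ± 8.79 CPM (log2 fold change 0.12, adjusted p = 0.0048). Replicate 3 of sgCdk10 was the highest library for Hnrnpul2, and the call was lost without it (adjusted p = 0.074). Hnrnpu itself, which encodes a nuclear scaffold protein, was not called (log2 fold change -0.02, adjusted p = 0.47), and without sgControl replicate 3 was called lower at an adjusted p of 0.043.

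The remaining members changed little. Hnrnpk, which binds C-rich RNA through KH domains, fell from 689.9 ± 8.87 to 652 ± 3.39 CPM (log2 fold change -0.08, adjusted p = 0.012 by edgeR), and lost the call without sgCdk10 replicate 1 or 2. In the group that binds runs of G, Hnrnph2 rose from 95.7 ± 2.27 to 101.9 ± 1.06 CPM (log2 fold change 0.09, adjusted p = 0.038), and lost the call in 7 of 14 alternatives, among them the fits without sgControl replicate 2 and without each of the sgCdk10 libraries. Its relatives Hnrnph1, Hnrnph3 and Hnrnpf were not called. Hnrnpf lay closest to 0 of the Hnrnp genes, with counts of 4472, 4341 and 4304 in sgControl and 4446, 4260 and 4735 in sgCdk10. Those groups overlapped, and the 95% confidence interval of the log2 fold change was -0.06 to 0.06. Hnrnpc, which binds runs of U, Hnrnpr and Hnrnpm were not called, with log2 fold changes from -0.07 to -0.03. In all, the groups did not overlap for 13 Hnrnp genes, 10 lower and 3 higher, and for 6 Srsf genes, 5 lower and 1 higher. Over all tested genes that share was 51.3% (24.8% lower, 26.6% higher). At a mean of at least 100 CPM the groups did not overlap for 1608 of 2408 genes (827 lower, 781 higher). Of the 26 members at that level it was 17 (15 lower, 2 higher), a similar share in all. Srsf9 and Hnrnph2, higher without overlap, lie below that level.

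**Figure D2:**
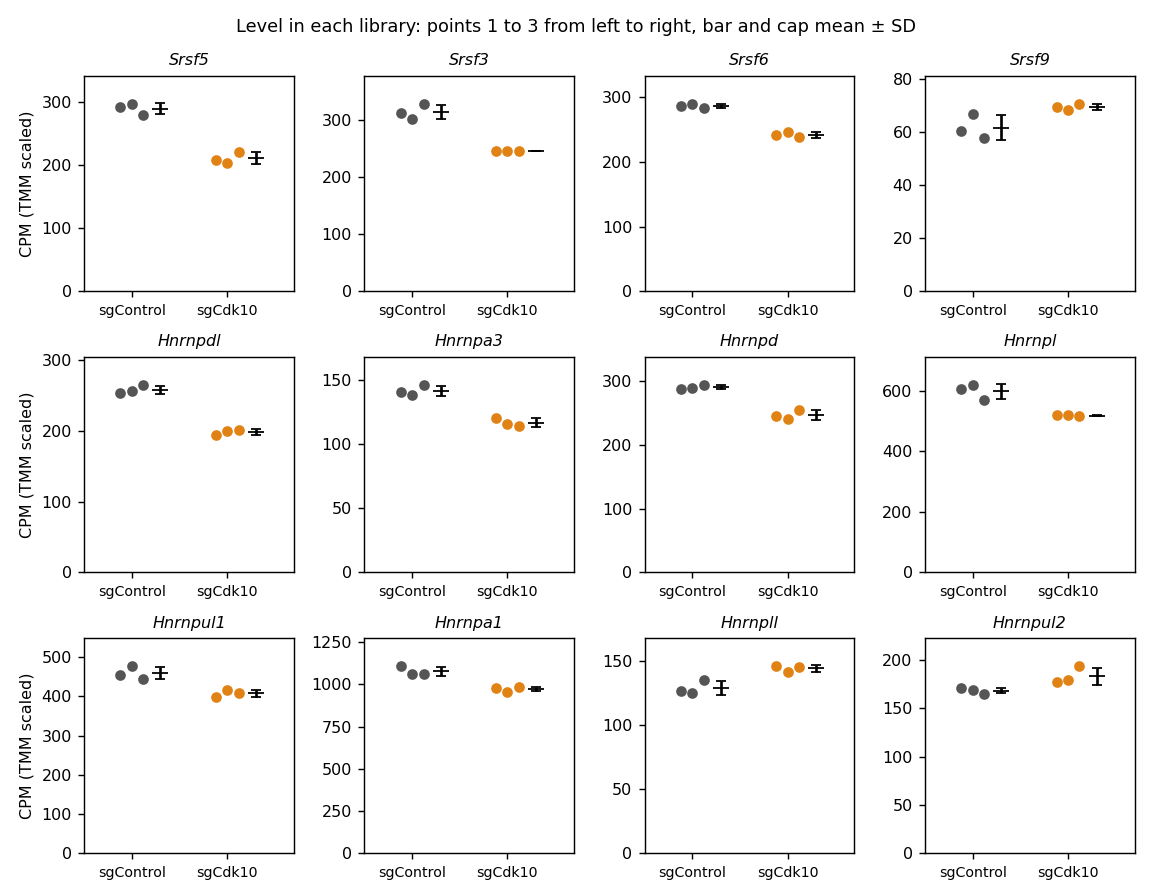
CPM in each of the 6 libraries for the members with the smallest p-values, one panel per gene, with replicates 1 to 3 from left to right and the mean ± SD as a bar beside them. The sgControl and sgCdk10 points do not overlap in any panel, and Srsf9, Hnrnpll and Hnrnpul2 are the panels in which sgCdk10 is higher.

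Between genes, levels were compared per kilobase of merged annotated exons (RPKM, the CPM divided by that length). In sgControl, Srsf2 stood at 75.3 ± 2.80 RPKM and Srsf5 at 72.7 ± 2.21, a difference smaller than the larger of their SDs. Srsf1 followed at 61.8 ± 2.29 and Srsf6 at 59.5 ± 0.672 RPKM, again within the spread. Srsf7 came next at 46.6 ± 1.31 RPKM, and Srsf3 (39.8 ± 1.65) and Srsf9 (37.3 ± 2.85) were within the spread of each other. Srsf10 (32.0 RPKM), Srsf11 (18.6) and Srsf4 (7.002) closed the order. By this length the order in sgCdk10 was different. Srsf5, at 52.9 ± 2.36 RPKM, stood below Srsf1, at 60.2 ± 0.905, and Srsf3, at 31.1 RPKM, stood below Srsf9, at 42.1.

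Among the hnRNPs in sgControl, Hnrnpa1 led at 341 ± 8.18 RPKM, far above Hnrnpab at 129.98 ± 5.51 and Hnrnpa2b1 at 119 ± 1.93. Other annotated genes overlap 29.1% of the exon length of Hnrnpab (Phykpl), 26.5% of that of Hnrnpf and 14.7% of that of Hnrnpm. How reads there were assigned is not known, so these levels may be too high or too low. Hnrnpk (107 RPKM), Hnrnpl (100.5) and Hnrnpu (99.8) followed, the last pair within the spread of each other. Hnrnpa0, Hnrnph1, Hnrnpc and Hnrnpf lay between 80.5 and 86.8 RPKM, also within the spread from neighbour to neighbour. Hnrnpll (11.04 RPKM), Hnrnpr (7.37) and Hnrnph3 (7.08) were the lowest, Hnrnpr and Hnrnph3 within the spread of each other. These orders depend on the length used. With the longest annotated transcript in its place, a choice made after the data were seen, Srsf2 (117 RPKM) and Hnrnpa1 (345 RPKM) still led their families. Srsf5 (83.3 RPKM) fell well behind Srsf2, and Hnrnpk (232 RPKM) and Hnrnpl (223 RPKM) came right after Hnrnpa1. By transcript length Srsf3 (78.5 RPKM in sgControl) stood well above Srsf9 (44.2 RPKM), and it stayed above Srsf9 in sgCdk10.

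**Figure D3:**
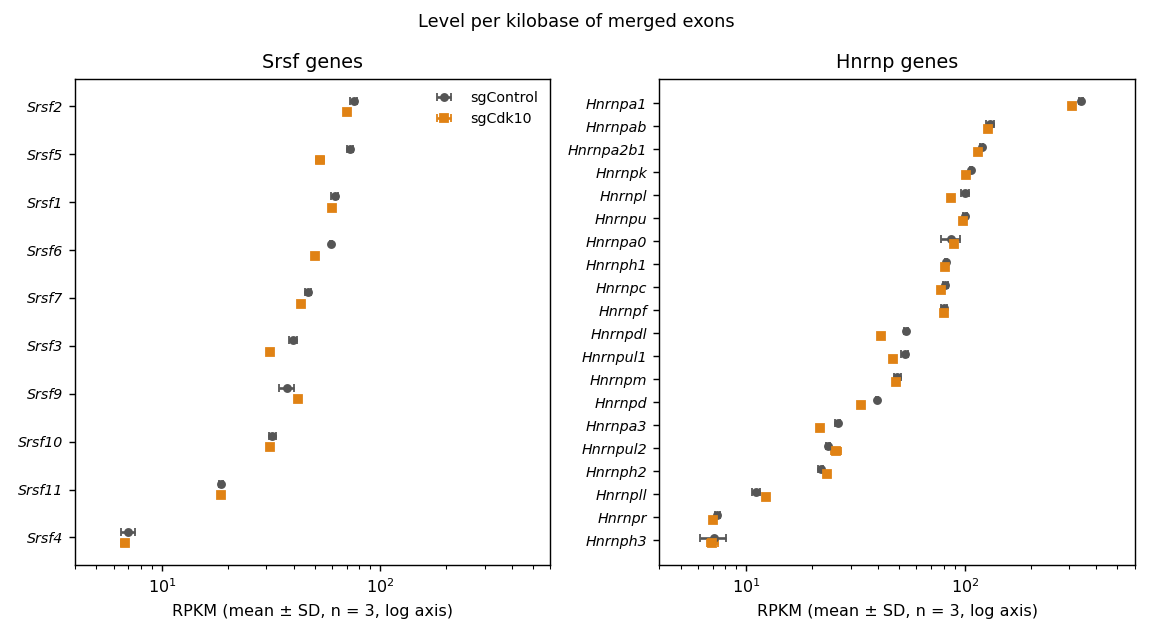
Mean level of each tested Srsf and Hnrnp gene in RPKM (per kilobase of merged exons, log axis) in sgControl and sgCdk10, with bars for the SD over 3 libraries. Hnrnpa1 stands alone at the top at 341 and 308 RPKM, and Srsf5 shows the widest gap between the groups among the Srsf genes.

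Summed over its members, the Srsf family held 2103, 2092 and 2104 CPM in the sgControl libraries and 1875, 1861 and 1878 CPM in the sgCdk10 libraries. The sgCdk10 sum was 0.891 times the sgControl sum, with an SD of 6.83 CPM over the sgControl libraries and 8.96 CPM over the sgCdk10 libraries. The Hnrnp family held 8173, 8155 and 7961 CPM against 7630, 7605 and 7688 CPM, or 0.944 times. The ratio of the Hnrnp to the Srsf sum was 3.89, 3.90 and 3.78 in sgControl and 4.07, 4.09 and 4.09 in sgCdk10, higher in sgCdk10 without overlap and lowest in sgControl replicate 3. No test is given for these sums, since the members were chosen with earlier results known.

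A few genes made up most of the drop. Of the Srsf drop of 228 CPM, Srsf5 held 34.6%, Srsf3 30.2% and Srsf6 19.4%, together 84.2%, while they made up 13.8%, 14.99% and 13.6% of the sum in sgControl. The Hnrnp drop of 455 CPM was spread more widely. Hnrnpa1 held 22.8% of it, Hnrnpl 17.7%, Hnrnpdl 13.2%, Hnrnpul1 11.3% and Hnrnpd 9.57%, together 74.6%.

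Ratios between related genes within a library do not depend on how libraries are scaled. The 12 pairs were chosen after the counts were seen, so they are described without a test. Hnrnpl was counted 4.79, 4.95 and 4.22 times as often as Hnrnpll in the sgControl libraries, and 3.56, 3.67 and 3.54 times as often in the sgCdk10 libraries. The Hnrnpul1 to Hnrnpul2 ratio was 2.66, 2.83 and 2.70 against 2.26, 2.32 and 2.11. Both ratios were lower in every sgCdk10 library than in any sgControl library, by 0.37 (SE 0.07) and 0.29 (SE 0.05) on the log2 scale. Among SR proteins, the Srsf3 to Srsf7 ratio was 1.83, 1.88 and 2.00 against 1.59, 1.62 and 1.59, and that of Srsf5 to Srsf4 was 10.8, 12.4 and 11.7 against 8.61, 8.16 and 9.59. The Hnrnpdl to Hnrnpab ratio was 0.689, 0.688 and 0.770 against 0.555, 0.568 and 0.555. Of the 12 pairs, 11 had groups that did not overlap, with the lower ratio in sgCdk10, and Hnrnpf to Hnrnph1 was the pair that overlapped. Most pairs were written with a gene that had fallen over one that had not, so the common direction follows from the choice and orientation of the pairs. The pairs also share genes, and 29.1% of the exon length of Hnrnpab, 26.5% of that of Hnrnpf and 43.0% of that of Srsf4 overlap other genes.

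**Figure D4:**
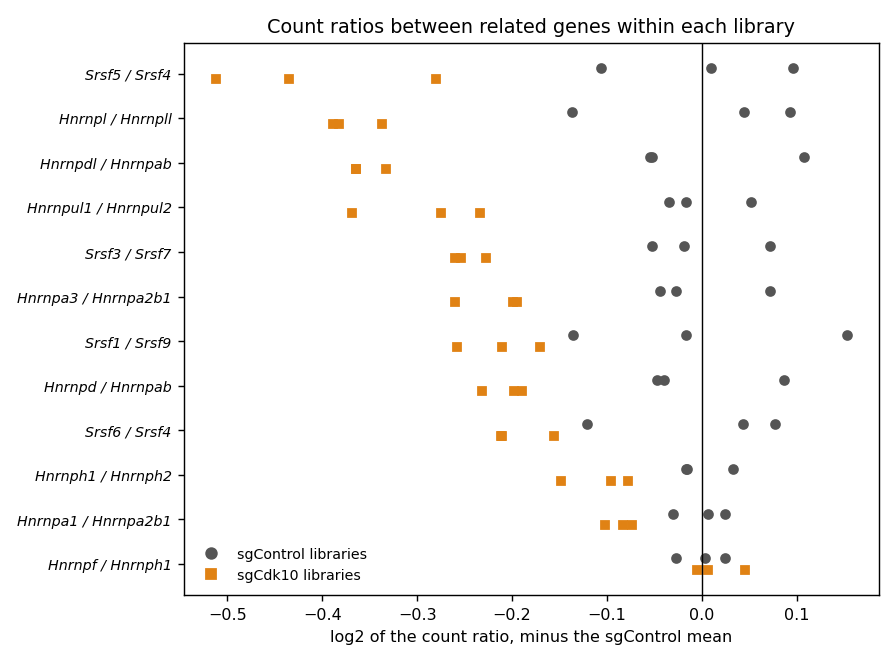
Count ratio of related Srsf or Hnrnp genes in each library, as log2 distance from the sgControl mean of that ratio, with sgControl and sgCdk10 as separate colours. The sgCdk10 points lie to the left of the sgControl points in 11 of 12 pairs, furthest for Srsf5 to Srsf4 and Hnrnpl to Hnrnpll.

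GENCODE M21 lists at least 1 nonsense-mediated decay transcript for 9 of the 11 Srsf and 10 of the 20 Hnrnp genes, against 24.7% of all tested genes. Of those 19 members, 10 were called lower and 2 higher, and the median log2 fold change was -0.08. Srsf5, Srsf3, Srsf6, Hnrnpdl, Hnrnpd, Hnrnpl and Hnrnpa1 were among the 10. Of the 11 tested members with no such transcript, 2 were called lower (Hnrnpa3 and Hnrnpul1) and 2 higher (Hnrnpul2 and Hnrnph2), with a median of -0.03. Among all 3326 tested genes with such a transcript, 24.9% were called lower and 22.3% higher. Their median level was 42.6 CPM, against 250 CPM for the 19 members, so this background is not matched for level. Among all tested genes of at least 100 CPM, 31.4% were called lower and 28.3% higher. Counts per gene sum productive and decay isoforms, so they cannot say which isoform of a member differed.

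Because several members fell together, 4 promoters are shown: those of Srsf5, Srsf6 and Hnrnpa3, which fell, and of Srsf9, which rose. They were picked with the results known. Members with smaller p-values than Srsf9, such as Srsf3 and Hnrnpdl, are not shown. Each window is the 250 bases before the RefSeq start on the plus strand of GRCm38.p6, written 5' to 3', and is free of the gene's own annotated exons. Capitals mark CCGGAAG (the ETS core), GGGCGG (the GC box) and CCAAT on either strand, so the reverse complement of each is in capitals too. Neighbouring matches can overlap, as a GC box and an ETS core do near the end of the Srsf5 window.
Srsf5, chr12:80945249-80945498: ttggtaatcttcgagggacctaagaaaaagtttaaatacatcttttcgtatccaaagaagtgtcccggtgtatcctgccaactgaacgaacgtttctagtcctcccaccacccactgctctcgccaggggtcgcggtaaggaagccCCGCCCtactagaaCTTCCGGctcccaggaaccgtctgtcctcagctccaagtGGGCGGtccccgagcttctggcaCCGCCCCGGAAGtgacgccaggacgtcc
Srsf6, chr2:162931258-162931507: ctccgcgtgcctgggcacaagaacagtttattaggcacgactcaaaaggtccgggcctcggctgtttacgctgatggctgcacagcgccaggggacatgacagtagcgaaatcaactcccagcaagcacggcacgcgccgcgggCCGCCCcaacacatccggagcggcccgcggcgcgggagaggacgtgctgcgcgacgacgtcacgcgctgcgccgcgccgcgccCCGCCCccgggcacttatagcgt
Hnrnpa3, chr2:75659009-75659258: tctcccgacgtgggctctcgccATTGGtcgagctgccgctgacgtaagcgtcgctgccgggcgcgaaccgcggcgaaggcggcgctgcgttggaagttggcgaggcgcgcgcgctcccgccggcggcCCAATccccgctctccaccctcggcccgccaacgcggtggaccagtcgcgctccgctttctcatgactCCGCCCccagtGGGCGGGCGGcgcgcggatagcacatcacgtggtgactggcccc
Srsf9, chr5:115326927-115327176: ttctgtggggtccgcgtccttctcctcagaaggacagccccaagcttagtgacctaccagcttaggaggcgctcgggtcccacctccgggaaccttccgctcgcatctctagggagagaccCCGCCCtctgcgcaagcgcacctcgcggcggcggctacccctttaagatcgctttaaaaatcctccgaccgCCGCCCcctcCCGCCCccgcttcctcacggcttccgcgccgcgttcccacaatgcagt
The Srsf5 window holds 2 ETS cores, starting 90 and 23 bases before the RefSeq start, and the other 3 windows hold none. GC boxes number 3 in Srsf5, 2 in Srsf6, 3 in Hnrnpa3 and 3 in Srsf9, and Hnrnpa3 alone of these has CCAAT, 2 times. The windows differ in base composition, from 56.8% G and C in Srsf5 to 73.2% in Hnrnpa3.

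Over the family, 29 of 31 members matched a RefSeq promoter by symbol, and Hnrnpul2 and Hnrnpll did not. GGGCGG was in at least 1 window of 24 of the 29 members, against 35.4% of all 27025 genes of the promoter table, and of 10 of the 12 that fell. CCAAT was in 16 of the 29, against 37.5% of all genes, and in 7 of the 12. CCGGAAG was in 6 of the 29 (Hnrnpd, Hnrnpf, Srsf4, Srsf5, Srsf7 and Srsf11), against 7.83%, and in 3 of the 12. The 12 genes that fell thus held each of these 3 motifs at a share close to that over the 29. The other motifs searched on both strands were TGACGT (7 of 29 members), TGACGTCA, which contains it (0), CACGTG (3), TATAAA (3), TTTCCCGC (4), TGANTCA (1), GAANNTTC (4) and, by name, the interferon-stimulated response element (0), the NRF1 site (1) and the YY1 site (0). A match describes letters in a window and is not evidence of binding, and base composition was not matched between the members and the table of all genes. Windows per gene were not matched either, with 41 for the 29 members and 32851 for the 27025 genes. That table also holds genes that were not tested here.

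The kinases that phosphorylate SR proteins did not move as 1 group. Of 8 tested, 2 were called higher and 3 lower by edgeR in the full fit, 62.5% in all against 42.5% of all tested genes. Without sgControl replicate 3, 3 were higher and 3 lower. The fits without sgControl replicate 1 or 2, or without sgCdk10 replicate 2 or 3, called 1 higher. Clk1 fell from 89.4 ± 3.13 to 75.02 ± 0.771 CPM (log2 fold change -0.25, adjusted p = 6.2e-06). Clk3 rose from 60.3 ± 2.97 to 68.5 ± 0.699 CPM (log2 fold change 0.18, adjusted p = 0.0012), and Dyrk1a, a related kinase, fell (log2 fold change -0.17). Of 18 SR-related co-activators, 3 were called higher and 5 lower (3 lower without any 1 of the sgCdk10 libraries). Without sgControl replicate 3, 4 were higher and 5 lower. Their share of 44.4% called is near the 42.5% of all tested genes. It is below the 59.7% called among genes of at least 100 CPM, and the median level of the list was 137 CPM. Tra2a, a partner of SR proteins at exonic enhancers, rose from 123.7 ± 1.43 to 150 ± 5.12 CPM (log2 fold change 0.27, adjusted p = 3.2e-07), and so did Son, a scaffold of nuclear speckles (log2 fold change 0.13), while Srek1 fell (log2 fold change -0.23).

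Proteins counted as hnRNPs under another symbol gave 1 gene higher and 3 lower of 9, or 44.4% called, near the 42.5% of all tested genes (22.1% higher, 20.4% lower). The median level of that list was 269 CPM, and among genes of at least 100 CPM 59.7% were called. Without sgControl replicate 3, 1 was higher and 4 lower. Cirbp, a cold-inducible RNA-binding protein, fell from 18.6 ± 0.231 to 12.9 ± 0.695 CPM (log2 fold change -0.52, adjusted p = 2.0e-06 by edgeR), and Pcbp2 fell by 0.12. Elavl1, which encodes HuR, a stabiliser of AU-rich mRNAs, rose from 105.9 ± 1.41 to 125 ± 4.38 CPM (log2 fold change 0.24, adjusted p = 3.2e-06). Of 25 other tested splicing factors, with a median level of 156 CPM, 3 were higher and 9 lower, or 48% called. That share too is near 42.5% and below 59.7%. Taf15, of the FET family, fell from 217.6 ± 3.59 to 168 ± 1.91 CPM (log2 fold change -0.38, adjusted p = 2.5e-10), and Ptbp2, a paralog of the polypyrimidine tract binder Ptbp1, fell by 0.37 on the log2 scale. Sfpq, of nuclear paraspeckles, rose (log2 fold change 0.19). Without sgCdk10 replicate 3 the list of other splicing factors had 1 higher and 9 lower, and without sgControl replicate 3 it had 3 higher and 10 lower.

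In the spliceosome itself, 2 of 19 tested U1 snRNP, U2 snRNP and U2AF genes were higher and 9 lower (12 lower without sgControl replicate 3). The full fit called 57.9% of them, against 42.5% of all tested genes (22.1% higher, 20.4% lower). The median level of the list was 155 CPM, and 57.9% is near the 59.7% called among genes of at least 100 CPM. Sf3b1, the branch point factor, rose (log2 fold change 0.17, adjusted p = 8.9e-06 by edgeR), while U2af1, which recognises the 3' splice site, and Phf5a, a partner of Sf3b1, fell by 0.20 and 0.31. Of 14 tested Sm core and SMN complex genes 35.7% were called in the full fit, below the share of all tested genes. There 1 was higher (Gemin5, 0.14) and 4 lower, among them Snrpg (log2 fold change -0.26) and Gemin2 (-0.40). Without sgControl replicate 3 the list had 1 higher and 6 lower. That share was no longer below that of all tested genes (22.1% higher and 22.2% lower in that fit). Of 20 genes of the tri-snRNP and catalytic spliceosome 30% were called, below the 42.5% of all tested genes, 1 higher and 5 lower. Without sgCdk10 replicate 1, 3 were lower, and without sgControl replicate 3, 1 was higher and 6 lower. Prpf31 stood at -0.31, Bud31 at -0.18 and Eftud2 at -0.15 on the log2 scale. Of 15 nonsense-mediated decay factors 1 was higher and 7 lower, or 53.3% called. In each of the fits without sgControl replicate 1, sgCdk10 replicate 1 or sgCdk10 replicate 2, 5 were lower and 0 higher. Without sgControl replicate 3, 1 was higher and 8 lower. Smg9, a regulator of the SMG1 kinase, fell from 72.4 ± 3.47 to 51.1 ± 2.91 CPM (log2 fold change -0.50, adjusted p = 6.8e-09), and Smg5 and Eif4a3 fell by 0.23 and 0.16. The list medians ran from -0.08 to 0.02, against 0.00 for all tested genes.

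**Figure D5:**
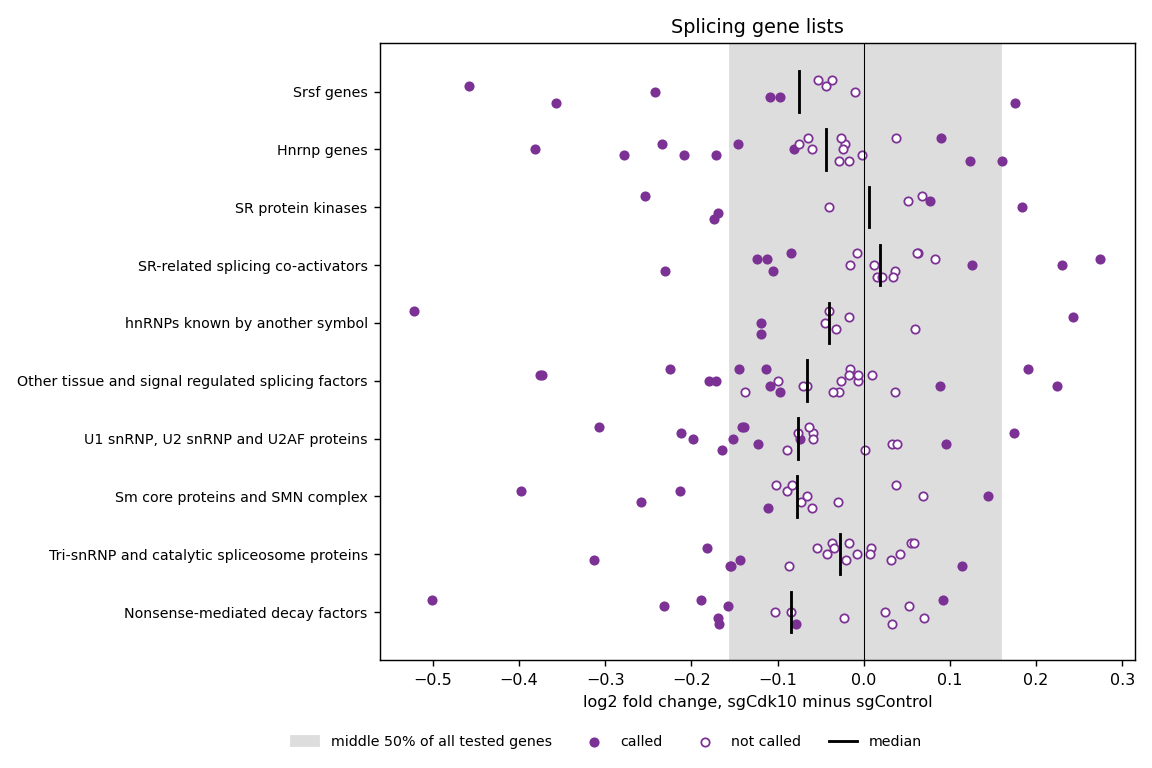
log2 fold change (sgCdk10 minus sgControl, edgeR) of every tested gene in the Srsf and Hnrnp families and in 8 related lists, with the list median as a bar and the range between the quartiles of all tested genes shaded. Filled points are called genes, and all 10 medians lie inside the shaded band.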

How the data were processed

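The authors deposited 1 table of raw counts per gene for 6 libraries, without normalization. Per the submitters' processing notes, the build was mm10 and the tools included featureCounts 2.0.3, HISAT2 2.2.1 and DESeq2 1.40.2, with no settings. The sources used here give neither the strand setting nor the annotation release, so how reads of overlapping genes were assigned is not known. Symbols and coordinates are from GENCODE M21. Identifiers without a symbol (at most 0.284% of counts) stayed in library sizes. Groups were taken from library titles. Separate cultures are not stated, so p-values may measure technical spread only.

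Genes were filtered with filterByExpr (minimum count 10, minimum total 15), scaled by TMM and tested with the quasi-likelihood test of edgeR 4.0.16, with Benjamini-Hochberg adjustment over 13442 genes and a threshold of 0.05. CPM use TMM-scaled totals. Log2 fold changes are sgCdk10 minus sgControl. The fit was tested on simulated data. The members, gene lists and tests were chosen with earlier results of these data known. Every member may be named. Per-library counts are given for the 4 Srsf and 8 Hnrnp genes with the smallest p, the most abundant per length and those closest to 0. In each related list the 3 genes with the smallest p are named, with mean CPM or log2 fold change.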

Additional observations from a re-analysis of the deposited data

How the results depend on the processing

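The 14 alternatives were DESeq2 1.42.0, its size factors within edgeR, voom of limma 3.58.1, no filter, a filter of 1 CPM, dispersions without robust estimation, a replicate block, a GC and length correction (loess span 0.5) and leaving out each of 6 libraries. No called member changed direction, 6 uncalled ones (Srsf4, Srsf11, Hnrnpf, Hnrnph3, Hnrnpa0 and Hnrnpm) changed sign in at least 1 alternative, and 19 of the 30 kept their side of the threshold in all 14. Genes called numbered 4179 in DESeq2 and 4791 to 6056 with a library left out, against 5717. Srsf genes called were 4 to 6 with a library left out and 7 with the GC and length correction, against 6. Hnrnp genes called were 8 to 14 with a library left out, 9 with DESeq2 or no filter and 14 (3 higher, 11 lower) with the GC and length correction, against 10. That correction added Srsf10, Hnrnpu, Hnrnpr, Hnrnpa2b1 and Hnrnpc, and the cause was not tested. Among related lists it moved the hnRNPs under another symbol from 4 to 8 calls, the tri-snRNP list from 5 to 8 lower and the other splicing factors from 9 to 14 lower. DESeq2 called 5 nonsense-mediated decay factors in place of 8.

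The labels state no pairing by replicate number. Deviations of same-numbered libraries correlated at 0.03, -0.06 and -0.10, which cannot show whether those libraries were prepared together. With the replicate block 5481 genes were called, 6 Srsf and 9 Hnrnp genes, with medians of -0.07 and -0.04, and of the members Hnrnph2 lost its call. Genes with few counts, such as Srsf12, are limited by depth.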

Other observations

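The 2 Hnrnp pseudogenes with a symbol that the choice of members left out were close to the floor. Hnrnpa1l2-ps had counts of 4, 4 and 4 in sgControl and 3, 4 and 4 in sgCdk10, and Hnrnpa1l2-ps2 had 2, 2 and 4 against 3, 1 and 1. Neither was tested.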
